A study of Homo sapiens with 27 samples.

Results

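The 6 genes PCF11, RBBP6, CSTF3, NUDT21, CPSF6 and CDK12, which encode factors of messenger RNA 3′ end formation and a kinase that acts on it, were followed through their own transcript ends. Their ends were all peaks of sequenced RNA 3′ ends that overlapped, on the gene's strand, 1 fixed hg19 region per gene, whatever their counts. Overlapping peaks of the 27 libraries were merged, which left 69 ends in the 6 regions of 233020 merged peaks in all. The libraries fall into 9 groups of 3, all from lung cancer cell lines. RNA of H358 whole cells was taken after cisplatin, oxaliplatin or the vehicle DMSO. RNA of the cytosol was taken from A549R and from A549 cells after cisplatin or DMSO, and RNA of heavy polysomes, the messages that carry many ribosomes, from A549 cells after cisplatin or DMSO. Both platinum compounds were given at 100 µM, and no exposure time was used here. The design text speaks of cisplatin resistance, from which A549R is taken here to be a resistant line derived from A549, with 1 line of each kind. The labels number the replicates but do not say whether they were separate cultures, so p-values measure only the spread between these libraries.

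Most human genes hold several sites at which the nascent transcript can be cleaved and given a poly(A) tail. A site chosen in an intron ends the message early, and a choice among sites of the last exon changes the length of its 3′ untranslated region. Several cleavage factors are themselves known to be made in more than 1 form through such choices. PCF11 and CSTF3 each have a known premature site in an early intron, and the factor's own activity feeds back on its use. CDK12, with cyclin K, phosphorylates RNA polymerase II during elongation, and its loss is known to raise the use of intronic sites.

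Listed counts came to between 3024814 and 11997535 per library, and the smallest count in any list was 5. A total of 16 libraries listed 73.1% to 79.4% of their peak numbers and the other 11 only 30.6% to 42.3%. The short lists were those of H358 oxaliplatin, of A549 cytosol and of both polysome libraries numbered 3. An end missing from a list was therefore not taken as a count of 0 in the main tests, and each of these used ends listed in every library compared. The percent of a gene's listed counts is an exception. There a missing end entered with a count of 0. Low percents of ends that some lists lack, and high percents of their gene's other ends, can therefore reflect the lists. List kind cannot be told apart from treatment where oxaliplatin is compared, or from cell line where A549R is set against A549, and it differs between most polysome and all A549 cytosol libraries.

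Of the 69 ends, 10 were listed in all 27 libraries and 17 in at most 3. The 33 ends that held at least 5% of their gene's listed counts in the mean of some group are described singly and named by their distance from the gene's last end. The other 36 stayed between 0.142% and 4.94% of their gene in their highest group. Early ends lie outside the last 6 kb of the region and distal ends inside it, which gave 37 early and 32 distal ends. No annotation of hg19 was used, so introns and last exons are not told apart, and priming on internal A-rich stretches cannot be told apart from real ends.

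**Figure D1:**
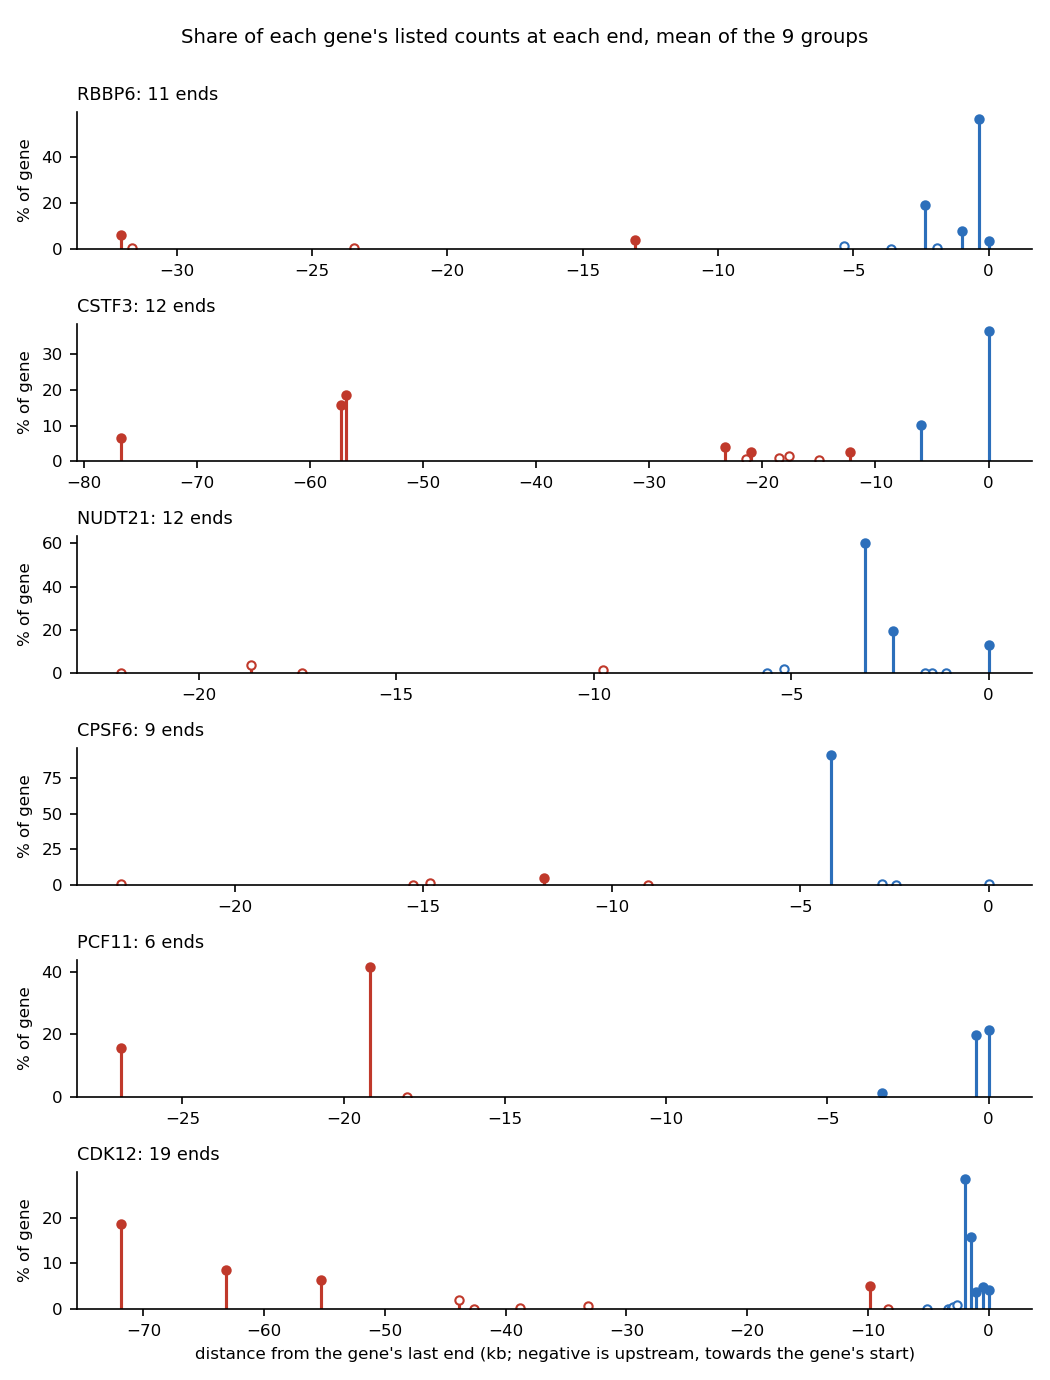
Position and strength of the 69 ends. Each stem is 1 end, its horizontal position is the distance in kb from the gene's last end and its height is the mean over the 9 groups of its percent of the gene's listed counts. An end missing from a list enters with no counts. Filled heads mark ends described singly, red stems lie 6 kb or more before the last end and blue stems nearer; 1 end carries most counts in RBBP6, NUDT21 and CPSF6, while PCF11, CSTF3 and CDK12 split theirs between far upstream and late ends.

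RBBP6, a large protein that activates cleavage by the core complex and also binds RB1 and p53, had 11 ends. Its strongest, the 0.3-kb end (chr16:24583275-24583847, plus strand), held 33.9% to 72.8% of the gene's counts in the group means. The 2.4-kb end (chr16:24580632-24581824) came next, with 12.6% to 27.4%. The early 32.1-kb end (chr16:24551645-24552114) reached 15.6% and the early 13.1-kb end (chr16:24570871-24571135) 6.47% in their highest groups. RBBP6 was thus mostly ended late in every group.

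CSTF3, the CstF-77 scaffold of the cleavage stimulation factor, had 12 ends. Its last end (chr11:33106122-33106819, minus strand) held 24.4% to 52.8% of the gene's counts. A pair of neighbouring ends lay far upstream, the 56.8-kb end (chr11:33162957-33163308) with 3.47% to 36.8% and the 57.2-kb end (chr11:33163346-33163540) with 2.25% to 20.7%. Because the region reaches 7622 bases past the last end, no CSTF3 end fell in the fixed 6-kb window, and CSTF3 is given with the window counted from its last end, a choice added after seeing the data.

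NUDT21 and CPSF6 encode the 25- and 68-kDa subunits of cleavage factor Im, which binds UGUA motifs and favours distal sites. NUDT21 had 12 ends, and 3 late ends on the minus strand held most of its counts. These were the 3.1-kb end (chr16:56466177-56466705) with 50.2% to 66.4%, the 2.4-kb end (chr16:56465450-56466053) with 11% to 29.4%, and the last end (chr16:56463041-56463536) with 6.42% to 22.1%. CPSF6 was the simplest of the 6 genes: its 4.2-kb end (chr12:69663251-69663961, plus strand) held 89.2% to 93.9% of the counts, and the early 11.8-kb end (chr12:69656146-69656349) 4.41% to 6.14%.

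PCF11, a scaffold of cleavage factor II that binds the polymerase tail and acts in termination, had 6 ends. The early 26.9-kb end (chr11:82869696-82869925, plus strand) held 2.38% to 52.9% of the gene's counts, and the early 19.2-kb end (chr11:82876741-82877648) 19.2% to 67.5%. The 0.4-kb end (chr11:82895750-82896457) and the last end (chr11:82896604-82896839) held 10.7% to 31.9% and 3.15% to 48.4%. None of the 6 was listed in all 27 libraries, and the lowest of these percents each include libraries that did not list the end. The highest percents can be raised by missing ends. Cisplatin polysome library 1, at 100% for the last end on 17 counts, listed no other PCF11 end. H358 cisplatin 2 and oxaliplatin 3 did not list the 19.2-kb end. They had 65.85% at the 26.9-kb end and 53.66% at the 0.4-kb end, respectively.

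CDK12 had 19 ends. The late 2.0-kb end (chr17:37688291-37688887, plus strand) held 19.6% to 36.8% and the neighbouring 1.5-kb end (chr17:37688907-37689405) 13.0% to 19%. At the other end of the gene, the early 71.9-kb end (chr17:37618438-37618989) held 11.4% to 26.2%. The ends at 63.2, 55.3 and 9.8 kb reached 15.8%, 17.7% and 8.96% in their highest groups.

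In H358 cells, the early PCF11 26.9-kb end and the main RBBP6 end were called higher with cisplatin, and ends of CSTF3, NUDT21 and CDK12 lower. The falls depended on the scaling, and every call on how missing ends were treated, as given below. Counts at the PCF11 26.9-kb end were 66, 27 and 53 with cisplatin, against 48, 34 and 25 with DMSO, from libraries of 3765404 to 6542394 counts with cisplatin and 5248796 to 9058438 with DMSO. CPM are counts scaled to library sizes that were adjusted anew within each comparison, so CPM of the same libraries differ between comparisons. The end had 11.2 ± 4.08 CPM with cisplatin and 5.08 ± 0.895 with DMSO (SD, n = 3 each), and every cisplatin library stood above every DMSO library. The log2 difference was 1.13 ± 0.38 (SE), with an adjusted p of 0.0178 from edgeR's quasi-likelihood test with Benjamini-Hochberg adjustment over 27634 ends, as for every adjusted p below over its own comparison. Of the 17 tested ends of the 6 genes, 2 rose and 4 fell. Over all ends tested, 18.2% rose and 18.1% fell, so these counts lie near the background. The median log2 difference was -0.45 over the 17 ends and 0.08 over all.

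The RBBP6 0.3-kb end had 111, 47 and 129 counts with cisplatin and 83, 101 and 49 with DMSO. This came to 22.8 ± 13.1 CPM with cisplatin and 10.9 ± 1.29 with DMSO, a log2 difference of 1.05 ± 0.35 (adjusted p = 0.0169). The cisplatin libraries were all above those of DMSO, but spread far more widely. The 32.1-, 13.1- and 2.4-kb ends of RBBP6 changed by 0.22, 0.08 and -0.03 (adjusted p = 0.689, 0.884 and 0.958), and their libraries overlapped.

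The CSTF3 56.8-kb end had 18, 6 and 7 counts with cisplatin and 53, 78 and 18 with DMSO. It fell to 2.21 ± 0.676 CPM with cisplatin, against 6.61 ± 2.94 with DMSO (log2 difference -1.55 ± 0.44, adjusted p = 0.00475). Its neighbour at 57.2 kb was listed in only 1 of the 3 cisplatin libraries and was not tested. The last CSTF3 end differed by -0.64 (adjusted p = 0.204). Among NUDT21 ends the 2.4-kb end fell by 1.26 (adjusted p = 0.00722) and the 3.1-kb end by 0.69 (adjusted p = 0.0458). The last NUDT21 end differed by -0.84 (adjusted p = 0.0778). The CDK12 2.0-kb end fell by 1.03 (adjusted p = 0.0393). The main CPSF6 end showed no detectable difference, with 33.6 ± 2.92 CPM after cisplatin and 34.8 ± 7.05 after DMSO (95% interval of the log2 difference -0.63 to 0.53). This too depended on the scaling. On the scale set by the ends listed in all 27 libraries, it ran from 64.4 to 78.9 CPM with cisplatin and from 42.1 to 59.3 with DMSO, without overlap. The difference on that scale was not tested.

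The falls in this comparison depended on the scaling, and every call depended on how missing ends were treated. With missing ends counted as 0, none of the 6 calls held, with adjusted p-values from 0.0773 to 0.145. Of the ends tested, the 14358 also listed in all oxaliplatin libraries had a median log2 difference of -0.52 and the other 13276 one of 0.67. Scaling on the first set alone shifted the 17 ends by a median of 0.51. On that scale the PCF11 26.9-kb and RBBP6 0.3-kb ends remained called, at 1.64 and 1.57, and the PCF11 0.4-kb end was called too, at 1.06 (adjusted p = 0.0421). The falls were then no longer called: -1.04 for the CSTF3 56.8-kb end (adjusted p = 0.0633), -0.75 and -0.18 for the NUDT21 2.4- and 3.1-kb ends (0.118 and 0.628) and -0.52 for the CDK12 2.0-kb end (0.329).

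Single libraries also carried some calls. The PCF11 rise missed the threshold without cisplatin 3 (0.85, adjusted p = 0.129) or DMSO 2 (0.99, 0.0916). The RBBP6 rise missed it without cisplatin 3 (0.50, 0.349), DMSO 1 (1.00, 0.0526) or DMSO 3 (0.94, 0.0522). The CSTF3 fall held whichever library was left out. The NUDT21 2.4-kb fall was lost without cisplatin 2 (-1.10, 0.0547) or DMSO 2 (-0.90, 0.102). The falls of the NUDT21 3.1-kb and CDK12 2.0-kb ends were each lost without cisplatin 2, cisplatin 3, DMSO 1 or DMSO 2, with values from -0.51 to -0.67 and from -0.92 to -0.97. Both were also lost with a mean count of at least 20 required (-0.52 and -0.86). Without cisplatin 1 the CDK12 71.9-kb end was called at -1.94, and without DMSO 3 the last NUDT21 end at -1.14, against -0.76 and -0.84 with all libraries. The ratio of the RBBP6 2.4-kb to its 0.3-kb end, -1.01 with all libraries, was called at -1.91 without cisplatin 1.

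Ratios of ends within a library do not depend on scaling. Of the 5 genes with early and distal ends tested in this comparison, none changed by cisplatin in its early against distal counts, where 23.9% of all pairs of ends did. PCF11, for which this ratio is the 26.9-kb against the 0.4-kb end, had 71.8 ± 5.25% of these counts at the early end with cisplatin and 63.4 ± 5.50% with DMSO (log2 difference of the ratio 0.59, adjusted p = 0.373). The 19.2-kb and last ends of PCF11 lie outside this ratio, since cisplatin 2 did not list them. CSTF3 had at its 56.8-kb end 39.2 ± 8.47% of the counts of this and the last end with cisplatin and 52.9 ± 11.2% with DMSO (-0.88, adjusted p = 0.23). No early against distal sum had an unadjusted p under 0.05.

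**Figure D2:**
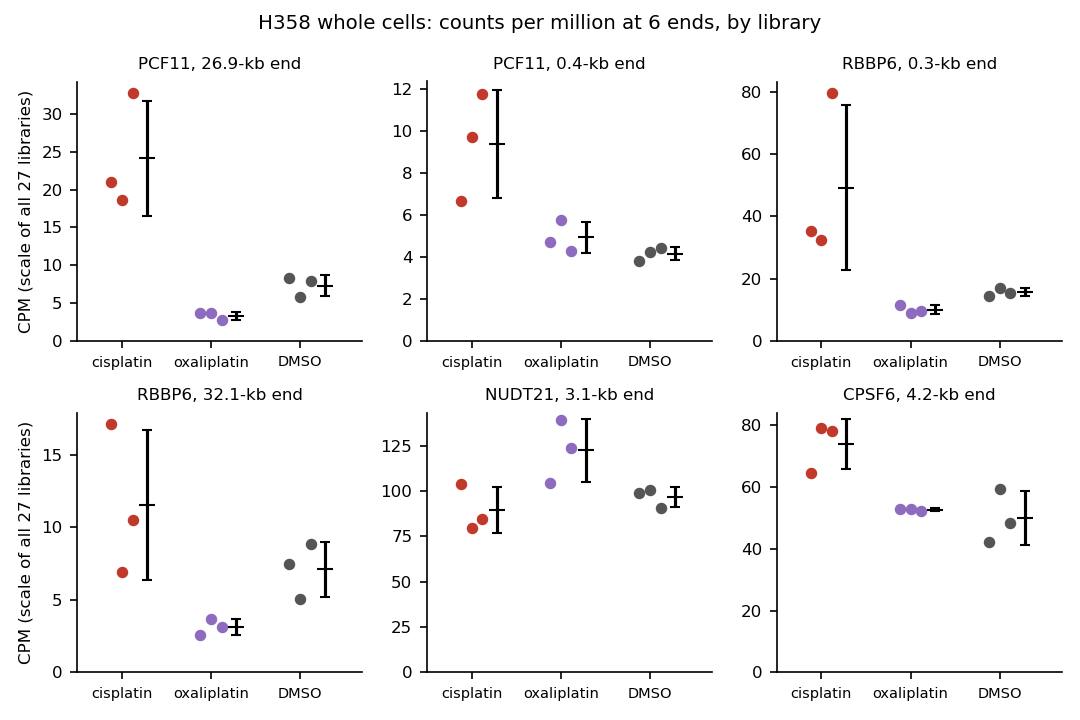
CPM at 6 ends in the H358 libraries, on 1 scale set by the ends listed in all 27 libraries. Points are libraries and the bars beside them the mean ± SD of 3; the PCF11 26.9-kb and RBBP6 0.3-kb ends are highest in every cisplatin library, and the oxaliplatin libraries lie below those of DMSO at both and at the RBBP6 32.1-kb end. On this scale the NUDT21 3.1-kb end overlaps between cisplatin and DMSO, and the CPSF6 4.2-kb end is higher in every cisplatin library than in any DMSO library.

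Oxaliplatin, in which a diaminocyclohexane carrier and an oxalate replace the ammine ligands and chlorides of cisplatin, gave differences from DMSO that ran the other way at PCF11 and RBBP6. The early PCF11 26.9-kb end had 17, 14 and 14 counts with oxaliplatin, against 48, 34 and 25 with DMSO, or 2.87 ± 0.397 and 6.34 ± 1.24 CPM. Every oxaliplatin library lay below every DMSO library. With no replicate term, 0 of 20 tested ends passed the adjusted threshold (edgeR), 6 had an unadjusted p under 0.05, and 3.83% of all ends were called. Libraries of the same replicate number deviated together here, with correlations as low as 0.103, a pairing read from these data and not from the labels. With the number as a block, where 9.7% of all ends were called lower, 6 of the 20 ends were called, all lower with oxaliplatin. These were the PCF11 26.9-kb end (-1.13, adjusted p = 0.0172), the RBBP6 32.1-, 13.1- and 2.4-kb ends (-1.19, -1.12 and -1.57), the CSTF3 56.8-kb end (adjusted p = 0.0245) and the CDK12 71.9-kb end (-1.26). The main RBBP6 end was lower in every oxaliplatin library, at 8.68 ± 1.29 CPM against 13.5 ± 1.06 with DMSO, and was not called (-0.64, adjusted p = 0.269). Without DMSO 2 the PCF11 26.9-kb, RBBP6 32.1-kb and CDK12 71.9-kb ends were called with no block as well, and without oxaliplatin 3 the RBBP6 2.4-kb end was. DESeq2 called 0 of the 20 ends. The median over the 20 was -0.12, and -0.0007 over all ends.

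Within PCF11, 40.5 ± 2.71% of the counts of the 26.9- and 0.4-kb ends stood at the early end with oxaliplatin and 63.4 ± 5.50% with DMSO. The 19.2-kb end was left out, as oxaliplatin 3 did not list it, and so was the last end, missing from DMSO 3. The ratio differed by -1.35 ± 0.38 (adjusted p = 0.0693, and 0.0303 with the replicate block), in all 3 libraries, and was the only one of 5 genes called with the block. Of all pairs, 9.74% were called with the block and 3.54% without it. In CSTF3, which is not among those 5 genes, the 56.8-kb end against the last end fell to 28.0 ± 5.11% with oxaliplatin, against 52.9 ± 11.2% with DMSO (-1.63 ± 0.38, adjusted p = 0.0332). This ratio uses the window counted from the last end, and it was not repeated with a block or with a library left out. The raw counts were 17, 23 and 22 at the 56.8-kb end and 53, 45 and 63 at the last end with oxaliplatin, and 53, 78 and 18 against 36, 54 and 27 with DMSO. The main ends of NUDT21 and CPSF6 showed no detectable change with oxaliplatin, with 95% intervals of -0.14 to 0.80 for the NUDT21 3.1-kb end and -0.44 to 0.58 for the CPSF6 4.2-kb end.

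Set directly against each other at the same dose, the early PCF11 26.9-kb end and 4 RBBP6 ends were higher with cisplatin than with oxaliplatin. The PCF11 26.9-kb end had 18 ± 5.79 CPM with cisplatin and 2.60 ± 0.408 with oxaliplatin, a log2 difference of 2.78 ± 0.36 (adjusted p = 6.1e-06). The RBBP6 0.3-kb end had 36.7 ± 20.1 with cisplatin and 7.83 ± 1.11 with oxaliplatin (2.21 ± 0.34, adjusted p = 5.2e-05). No library of one compound reached those of the other at either end. The RBBP6 32.1- and 13.1-kb ends were also higher, by 1.90 and 1.75 (adjusted p = 0.000951 and 0.00259). The 2.4-kb end was higher by 1.99 (adjusted p = 0.00704), but its libraries overlapped, with 88, 11 and 19 counts after cisplatin and 10, 5 and 42 after oxaliplatin. That call was lost without cisplatin 1 (1.15, adjusted p = 0.145), without oxaliplatin 2 (1.61, 0.0583) and with DESeq2 (0.124).

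In this comparison 5 of 17 tested ends were higher with cisplatin and 0 lower, where 12.4% of all ends were higher and 10.2% lower. The median was 0.42 over the 17 ends and 0.01 over all. The 4 called RBBP6 ends belong to 1 gene and cannot be counted as separate genes. By ratio, PCF11 was the only one of 5 genes called (1.95 ± 0.37, adjusted p = 0.00242, against 15% of all pairs called). The PCF11 26.9-kb end held 71.8 ± 5.25% of the counts of this and the 0.4-kb end after cisplatin and 40.5 ± 2.71% after oxaliplatin. The lowest cisplatin library stood at 65.9% and the call held under every alternative tried. The ratio leaves out the 19.2-kb end, missing from cisplatin 2 and oxaliplatin 3, and the last end, missing from cisplatin 2. On the scale of all 27 libraries the 19.2-kb end had 13.0 and 27.2 CPM in cisplatin 1 and 3. In oxaliplatin 1 and 2 it had 12.2 and 12.6 CPM, and it was not tested. RBBP6 showed no detectable change of ratio (-0.27, 95% interval -1.13 to 0.59); the 4 ends tested were each higher. CDK12 had 40.3 ± 13.9% at its 71.9-kb end after cisplatin and 25.1 ± 10.4% after oxaliplatin (1.21, adjusted p = 0.143). The level of its 71.9-kb end differed by 0.91 (adjusted p = 0.179), was called without oxaliplatin 3 (1.60, 0.0195) and changed sign without cisplatin 1 (-0.19). Without cisplatin 2 the last NUDT21 end was called at -1.16 (0.0391), against -0.77 (0.112) with all libraries. For the main CPSF6 end the interval of the difference was -0.05 to 0.90. Oxaliplatin and DMSO, and oxaliplatin and cisplatin, are here also short and long lists, so list kind and compound cannot be told apart; the 3 comparisons share libraries and are not independent.

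In A549 cells, A549R cells and A549 polysomes, the NUDT21 3.1-kb end had a higher mean and the last end a lower mean with cisplatin than with DMSO, and the ratio of the 2 ends separated the treatments in each setting. In A549 cytosol the 3.1-kb end had 64.6 ± 9.51 CPM with cisplatin and 46.6 ± 3.28 with DMSO, and the last end 8.55 ± 1.15 and 11.8 ± 0.921. In A549R cytosol the 3.1-kb end had 53.8 ± 2.77 with cisplatin and 30.6 ± 8.89 with DMSO, and the last end 5.30 ± 0.862 and 8.04 ± 1.26. In polysomes the 3.1-kb end had 58.4 ± 2.09 with cisplatin and 38.2 ± 5.45 with DMSO, and the last end 11.3 ± 5.78 and 17 ± 4.71. Libraries of the 2 treatments did not overlap at the 3.1-kb end in any of the 3 settings.

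The 3.1-kb level differed by 0.47 in A549 cytosol (adjusted p = 0.15), 0.80 in A549R (0.155) and 0.61 in polysomes (0.207), none past the threshold without a block. Libraries of the same replicate number deviated together in all 3 settings, with a correlation as low as 0.101 in A549R. This pairing was read from these data and not from the labels. With the block the A549 and A549R differences were called (adjusted p = 0.0426 and 0.0343), where the same fits called 18% and 4.41% of all ends. In polysomes the block called none of the 22 ends tested, where it called 9.41% of all ends. As a share of the counts of these 2 ends, the last end had 9.38% to 14.1% in A549 cisplatin libraries and 17.9% to 22.6% in A549 DMSO libraries. It had 7.12% to 10.0% in A549R cisplatin libraries and 15.1% to 30.1% in A549R DMSO libraries. In polysomes it had 7.35% to 20.4% with cisplatin and 25.8% to 32.9% with DMSO. Thus the 2 treatments did not overlap in any setting.

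The log2 difference of this ratio was -0.95 ± 0.27 in A549 (adjusted p = 0.0938), -1.40 ± 0.36 in A549R (0.079) and -1.24 ± 0.44 in polysomes (0.312). With the replicate block it was called in each, at -0.97, -1.44 and -1.23 (adjusted p = 0.0285, 0.014 and 0.0372). Of all pairs, 10.6%, 4.11% and 5% were called with the block in the 3 comparisons, and 2.94%, 1.22% and 0.317% without it. The 2.4-kb end against the 3.1-kb end differed in the same direction, by -0.61, -0.83 and -0.74 (adjusted p = 0.225, 0.19 and 0.377), again with no overlap. The 3 settings share no library, but A549 cytosol and polysome libraries of the same number deviated together, so these settings cannot be counted as independent. In H358 the same ratio of last to 3.1-kb end did not move detectably with cisplatin, with 15.8 ± 7.36% against 15.4 ± 4.53% with DMSO (-0.07 ± 0.42, adjusted p = 0.934). The difference of H358 from the others was not tested.

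**Figure D3:**
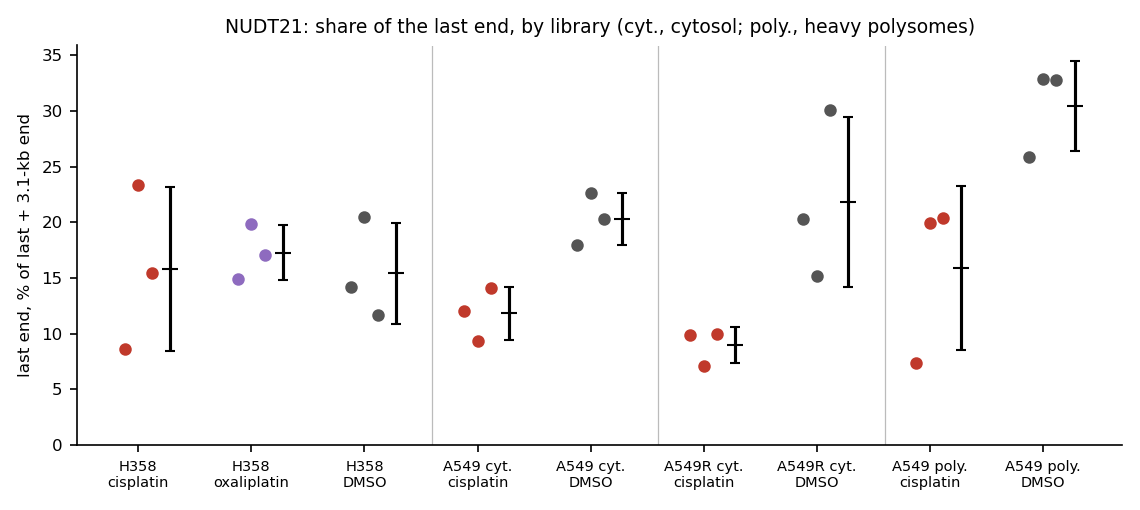
Share of the last NUDT21 end in the counts of the last and the 3.1-kb ends, by library, with the mean ± SD of 3 beside each group. In A549 cytosol, A549R cytosol and A549 polysomes every cisplatin library lies below every DMSO library of the same setting; the 3 H358 groups overlap.

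The main RBBP6 end also had a higher mean with cisplatin in each of these settings, and was called in none of them without the block. In A549 cytosol the 0.3-kb end had 81.3 ± 11.4 CPM with cisplatin and 53.9 ± 5.61 with DMSO (0.59 ± 0.17, adjusted p = 0.082, and 0.0121 with the block), without overlap. In A549R it had 57.7 ± 20.7 with cisplatin and 39.5 ± 15.2 with DMSO (0.53, adjusted p = 0.566), with overlap. In polysomes it had 46.4 ± 7.17 with cisplatin and 30.7 ± 4.17 with DMSO (0.60, adjusted p = 0.257), without overlap. The RBBP6 2.4-kb end in A549R differed by 1.31 (adjusted p = 0.511, and 0.0193 with the block), from 203, 193 and 19 counts with cisplatin and 41, 124 and 6 with DMSO.

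No end of the 6 genes passed the adjusted threshold in these 3 comparisons without a block (edgeR), of 24 tested in A549, 19 in A549R and 22 in polysomes. Unadjusted p-values under 0.05 numbered 2, 4 and 2. Of all ends, 4.73% were called in A549, 0.918% in A549R and 0.704% in polysomes. DESeq2 called 0 ends of the 6 genes in each. No early against distal sum was called, of 3, 2 and 3 genes. In A549R the last PCF11 end and the CDK12 9.8-kb end were lower in every cisplatin library than in any DMSO library (-1.12 and -1.05), with adjusted p-values of 0.136 and 0.193. The main CPSF6 end had 95% intervals of -0.31 to 0.45, -0.52 to 0.38 and -0.19 to 0.67.

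**Figure D4:**
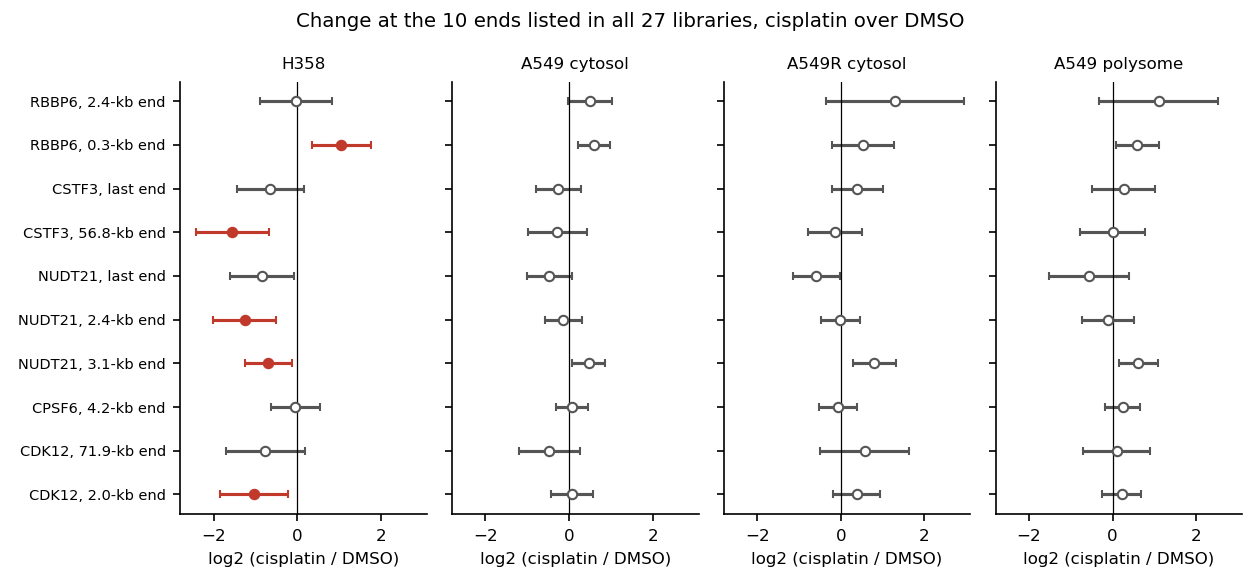
Log2 difference of cisplatin over DMSO at the 10 ends listed in all 27 libraries, with the 95% interval of the fit (n = 3 libraries each). Filled red points passed an adjusted p of 0.05 in edgeR's test; called points stand in H358 alone, where the 3.1-kb NUDT21 end is at -0.69, against 0.47, 0.80 and 0.61 in the other panels.

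A549R and A549 cells did not differ detectably at these genes without treatment. None of 18 tested ends was called in DMSO cytosol (edgeR; 1 at an unadjusted p under 0.05, 0 by DESeq2), where 1.21% of all ends were, and neither of the 2 genes with early and distal ends was, where 0.87% of all pairs were. The largest difference in level was at the CDK12 71.9-kb end, with 7.28 ± 3.97 CPM in A549R and 17 ± 2.98 in A549 (-1.28, adjusted p = 0.166), and no overlap. The ratio of the RBBP6 2.4-kb to its 0.3-kb end differed by -1.41 (adjusted p = 0.289) and was called without A549R DMSO 2 (-2.28, 0.0261). The response to cisplatin did not differ detectably between the lines either: 0 of 14 ends and 0 of 1 gene were called (edgeR; 1 end at an unadjusted p under 0.05, 0 ends by DESeq2), as were 0% of all ends and pairs. For the NUDT21 ratio of last to 3.1-kb end the difference of responses had a 95% interval of -1.40 to 0.52.

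More ends of these genes differed between polysomes and cytosol than in any other comparison with A549 cells, and the same held for all ends. Late ends of CSTF3, CPSF6 and CDK12 took a larger part of polysome than of cytosol RNA, and late RBBP6 ends a smaller one. In DMSO, 7 of 20 tested ends were higher in polysomes and 4 lower, where 16.9% of all ends were higher and 17.4% lower. In cisplatin, 6 of 22 were higher and 4 lower, where 18% and 18.6% of all ends were. The numbers of lower ends thus lie near the background under both treatments. The medians were 0.36 with DMSO and 0.47 with cisplatin, against 0.01 and 0.0034 over all ends. These are relative abundances: a scale set by all ends cannot tell less of 1 message from more of the rest, and in bulk RNA fewer cells and less RNA per cell cannot be told apart.

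The main CPSF6 end had 129.9 ± 9.97 CPM in DMSO polysomes and 65.0 ± 5.39 in DMSO cytosol (1.00 ± 0.17, adjusted p = 0.00267). With cisplatin it had 155.5 ± 16.3 in polysomes and 68.8 ± 9.33 in cytosol (1.18 ± 0.19, adjusted p = 0.00167). The CDK12 2.0-kb end had 34.6 ± 2.04 in DMSO polysomes and 13.7 ± 1.27 in DMSO cytosol (1.33 ± 0.20, adjusted p = 0.00147), and rose by 1.48 in polysomes over cytosol with cisplatin (0.00132). Both ends were higher in every polysome library than in any cytosol library, under both treatments. The main RBBP6 end had the opposite order, with 28.9 ± 3.93 in DMSO polysomes and 58.5 ± 6.15 in DMSO cytosol (-1.02 ± 0.19, adjusted p = 0.00448), and -1.01 (0.00563) with cisplatin. The RBBP6 2.4- and 1.0-kb ends were lower too, by 2.32 and 1.67 with DMSO and by 1.73 and 1.48 with cisplatin.

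CSTF3 ends went both ways. The last end had 65, 206 and 104 counts in DMSO polysomes and 50, 67 and 32 in DMSO cytosol, or 25.2 ± 5.13 and 11.8 ± 1.54 CPM (1.09 ± 0.24, adjusted p = 0.00872). The 56.8-kb end had 7, 23 and 9 counts in DMSO polysomes and 40, 44 and 24 in DMSO cytosol, or 2.55 ± 0.556 and 8.64 ± 0.328 CPM (-1.71 ± 0.29, adjusted p = 0.00296). With cisplatin the last end was higher in polysomes by 1.62 (adjusted p = 0.00507) and the 56.8-kb end lower by 1.41 (0.0179). One gene thus gave an early end, at 56.8 kb, that was scarcer in polysomes than in cytosol and a last end that was more abundant there. Not all early ends shared the fall. Leaving out 1 library, the adjacent 57.2-kb end was higher in polysomes by 0.54 to 1.01 with cisplatin. The early 76.7-kb end was higher there by 0.51 to 1.11 with DMSO. Neither was called with all libraries.

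Within each library, the 56.8-kb end made up 9.24 ± 1.12% of its sum with the last end in DMSO polysomes and 42.3 ± 2.45% in DMSO cytosol. The log2 difference of the ratio was -2.82 ± 0.32 (adjusted p = 0.000326). With cisplatin the shares were 9.14 ± 4.45% in polysomes and 40.4 ± 10.7% in cytosol (-2.98 ± 0.47, adjusted p = 0.00199). The difference was called whichever library was left out, at -2.71 to -2.92 with DMSO and -2.55 to -3.30 with cisplatin. Leaving out a polysome library numbered 3 sets long polysome lists against short cytosol lists, so list kind and fraction cannot be told apart there. The adjacent 57.2-kb end was not called against the last end: it made up 30.8 ± 4.59% in DMSO polysomes and 38.9 ± 8.71% in DMSO cytosol (-0.51, adjusted p = 0.381), and 32.8 ± 4.64% in cisplatin polysomes and 46.0 ± 3.49% in cisplatin cytosol (-0.84, 0.0919). The difference between the 2 neighbouring ends was not tested. The 56.8-kb peak stops at position 33163308 and the 57.2-kb peak starts at 33163346. Whether they are separate sites, or how reads were divided between them, was not tested, and the share of the 56.8-kb end alone could reflect that division.

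**Figure D5:**
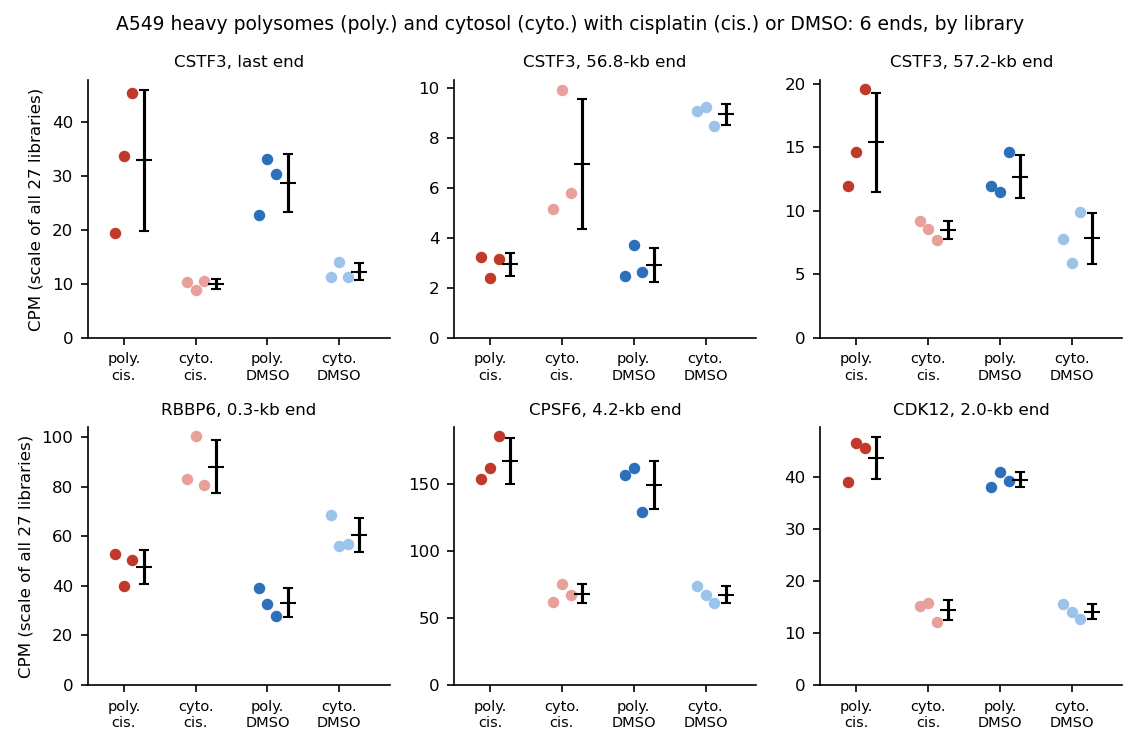
CPM at 6 ends in A549 polysome and cytosol libraries, on the scale set by the ends listed in all 27 libraries. Points are libraries and the bars beside them the mean ± SD of 3; the CSTF3 last, CPSF6 4.2-kb and CDK12 2.0-kb ends are higher in every polysome library, the CSTF3 56.8-kb and RBBP6 0.3-kb ends lower, under both treatments.

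Summed over all early ends, CSTF3 fell to 32.4 ± 2.69% early in DMSO polysomes, against 53.8 ± 6.03% in DMSO cytosol (-1.26, adjusted p = 0.0123), and to 34.2 ± 2.06% in cisplatin polysomes, against 57.2 ± 7.12% in cisplatin cytosol (-1.39, 0.00911). A distal window of 12 kb ended both calls (-0.75, adjusted p = 0.115, and -0.88, 0.0978), as did leaving out cytosol DMSO 1 (-1.17, 0.0625) or cytosol cisplatin 2 (-1.25, 0.0555). CDK12 was the 1 gene of 2 called in DMSO by the fixed window, where 17.9% of all pairs were called. It had 26.3 ± 1.98% early in polysomes and 40.9 ± 5.86% in cytosol (-0.94, adjusted p = 0.0361). That call was lost on leaving out any library but polysome DMSO 3, with differences still between -1.08 and -0.69 and adjusted p-values from 0.0629 without cytosol DMSO 2 to 0.173 without cytosol DMSO 3. The CDK12 71.9-kb end against the 2.0-kb end differed by -1.19 (adjusted p = 0.0148), and was lost without cytosol DMSO 3 (adjusted p = 0.0566) or polysome DMSO 2 (-1.16, 0.0616). In cisplatin 0 of 4 genes were called by the fixed window (edgeR; 0 at an unadjusted p under 0.05), where 19.3% of all pairs were, and DESeq2 was not run on pairs. The median difference over all pairs was -0.19 with DMSO and -0.21 with cisplatin.

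Libraries of the same replicate number deviated together in both comparisons, again a pairing read from the data and not from the labels. The block added calls, to 13 of 20 ends with DMSO and 15 of 22 with cisplatin, where it called 47.9% and 51.2% of all ends. Without it the ratio of the RBBP6 2.4-kb end was called on leaving out polysome DMSO 2 (-2.37), that of the CDK12 9.8-kb end without polysome DMSO 1 (-1.57), and that of a minor CDK12 end without polysome cisplatin 3 (-1.93). With DMSO it added the NUDT21 2.4- and 3.1-kb ends, lower in polysomes by 0.59 and 0.50 (adjusted p = 0.0316 and 0.027). It also added 3 ratios, of the RBBP6 2.4-kb (-1.49), NUDT21 last (0.78) and CDK12 9.8-kb (-1.07) ends to their gene's strongest distal end, where it called 26.1% of all pairs. With cisplatin it added the CSTF3 57.2-kb (0.72) and CDK12 71.9-kb (0.65) ends as higher, and the last RBBP6 (-0.97), NUDT21 2.4-kb (-0.56) and a minor NUDT21 end (-1.01) as lower. It also added the ratio of the CDK12 71.9-kb end to the 2.0-kb end (-0.86, adjusted p = 0.0486) and that of the same minor CDK12 end (-1.61), where it called 28.6% of all pairs.

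With DMSO the CSTF3 6.0-kb end was higher by 1.38 (adjusted p = 0.0141), the CPSF6 11.8-kb end by 1.08 (0.0156), and the CDK12 1.5- and 0.5-kb ends by 0.78 and 1.77 (0.0232 and 0.00372). Of these, the CDK12 0.5-kb call held whichever library was left out. The CSTF3 6.0-kb call was lost without cytosol DMSO 1 (1.22, 0.0653), as was that of the RBBP6 1.0-kb end (-1.50, 0.0557), which was also lost without polysome DMSO 1 (-1.48, 0.0595). The CPSF6 11.8-kb and CDK12 1.5-kb calls were lost without any 1 of the cytosol libraries or polysome DMSO 2, at 0.99 to 1.15 and 0.64 to 0.87. Without polysome DMSO 3 the NUDT21 2.4- and 3.1-kb ends were called (-0.68 and -0.58), and without polysome DMSO 1 the CSTF3 76.7-kb end (1.11).

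With cisplatin the CSTF3 6.0-kb end was higher by 1.79 (adjusted p = 0.00559), and the CDK12 1.5- and 1.0-kb ends by 1.00 and 1.08 (0.0135 and 0.0491). The last of these was lost with DESeq2 (0.0883) and without cytosol cisplatin 1 (0.82, 0.167), cytosol cisplatin 3 (0.96, 0.161), polysome cisplatin 1 (1.25, 0.0586) or polysome cisplatin 2 (1.00, 0.111). The CDK12 1.5-kb call was lost without cytosol cisplatin 3 (0.89, 0.0553). The CSTF3 56.8-kb call was lost without cytosol cisplatin 2 (-1.02, 0.0829), polysome cisplatin 1 (-1.35, 0.056) or polysome cisplatin 2 (-1.20, 0.0858). The RBBP6 2.4-kb call was lost without cytosol cisplatin 2 (-1.48, 0.0585). The RBBP6 1.0-kb call was lost without any 1 of cytosol cisplatin 1 and 2 and polysome cisplatin 1 and 2 (-1.08 to -1.55). Without polysome cisplatin 1 the CSTF3 57.2-kb end was called (1.01, 0.043).

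Across the 9 groups, on the scale set by ends listed in all 27 libraries, the main ends were ordered differently from gene to gene. The RBBP6 0.3-kb end ran from 89.7 ± 25.8 CPM in A549R cisplatin cytosol to 10.1 ± 1.39 in H358 oxaliplatin. Its 6 highest groups each overlapped their neighbour in the order, and the 3 steps from cisplatin polysomes down to H358 oxaliplatin did not. The CPSF6 4.2-kb end ran from 167.3 ± 16.9 in cisplatin polysomes to 49.9 ± 8.68 in H358 DMSO, with a gap below the 2 polysome groups and another above the 2 lowest, H358 oxaliplatin and H358 DMSO. The CDK12 2.0-kb end ran from 43.8 ± 4.09 in cisplatin polysomes to 7.56 ± 1.35 in H358 cisplatin. The CSTF3 last end ran from 32.9 ± 13.1 in cisplatin polysomes to 7.63 ± 2.43 in H358 cisplatin, again with a gap below the polysomes.

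The NUDT21 3.1-kb end was highest in H358 oxaliplatin, at 122.4 ± 17.4, and lowest in DMSO polysomes, at 41.1 ± 3.82. The CSTF3 56.8-kb end was lowest in the 2 polysome groups, at 2.93 ± 0.460 with cisplatin and 2.93 ± 0.679 with DMSO, the highest of them (3.71) overlapping the lowest H358 oxaliplatin library (3.65). Among 10273 other ends listed in all libraries, the level most like each main end over the 9 group means had a Pearson r of 0.984 for RBBP6 (chr5:139494495-139495212, plus strand) and 0.994 for CSTF3 (chr17:34945641-34946281, plus strand). It was 0.988 for NUDT21 (an end on chromosome 8), 0.989 for CPSF6 (chr21:30434569-30434741, minus strand) and 0.996 for CDK12 (chr11:59343906-59344198, minus strand). These are the best of many over 9 points that share libraries and scale, and no test goes with them. For PCF11 none was computed, since its strongest distal end was listed in 25 of 27 libraries.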

How the data were processed

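RNA 3′ ends were measured in 27 libraries of 9 groups. Libraries were made, per the labels' protocols, by fragmenting polyadenylated RNA, copying it with an anchored oligo-dT primer and amplifying it by PCR, and were sequenced from 1 end. The authors deposited 1 peak list per library, with a raw read count per peak and no normalization. Bedtools 2.17.0, Bowtie2 2.2.5 and SAMtools 1.1 appear, with no role, in the submitters' processing notes, as does the mouse build mm9; positions fit human hg19 and were read so. How peaks were called and filtered is not stated in the sources used here. Reads carry no molecular identifiers, so counting error is a lower bound.

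Peaks overlapping by at least 1 base on a strand were merged over libraries and counts summed. Levels were tested with edgeR 4.0.16 in R 4.3.3 (quasi-likelihood, TMM scaling) on ends listed in all libraries of a comparison, and ratios on pairs of ends within 100 kb with a term per library; both were adjusted over the whole table at 0.05. Standard errors were derived from the F statistic. DESeq2 1.42.0 was an alternative for levels; others are under the closing section. Both tests were run on counts simulated with the same dispersion at every end and no difference in list kind. Those runs cannot speak to effects of list kind. Replicate libraries differed beyond sampling noise (chi-square per degree of freedom at least 1.99), so none was merged. Libraries of the same number deviated together, each correlation above 0.1, in the oxaliplatin against DMSO, A549, A549R, A549R against A549, and 3 polysome comparisons, which is a pairing read from the data and not from the labels. The members, regions and lists were chosen with earlier results of these data known. Ends were named singly at 5% or more of their gene's listed counts in some group; other pathway genes were not analysed here.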

Additional observations from a re-analysis of the deposited data

Results flagged for a closer look

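The NUDT21 3.1-kb end is singled out because, with each comparison on its own scale, every H358 library with cisplatin lay below every H358 library with DMSO, and in A549 and A549R every library with cisplatin lay above those with DMSO. Its log2 difference of cisplatin over DMSO was -0.69 in H358, against 0.47 in A549 cytosol, 0.80 in A549R cytosol and 0.61 in A549 polysomes. The difference between the cell lines was not tested. The H358 order depends on the scaling: on the scale of ends listed in all 27 libraries the H358 cisplatin libraries ran from 79.6 to 104.1 CPM and the DMSO libraries from 90.7 to 100.7, which overlap, and with scaling on ends listed in all 9 H358 libraries the difference was -0.18.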

How the results depend on the processing

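The number of ends called for H358 cisplatin against DMSO was 6, and fell to 0 with missing ends counted as 0 and to 3 with ends of all 9 H358 libraries; leaving out 1 library gave 2 to 7. The replicate block moved the calls for oxaliplatin against DMSO to 6 ends and 1 gene, and those for cisplatin in A549 and in A549R to 2 ends each. Counting the distal window from the last end gave 2 genes for polysomes against cytosol in DMSO and 1 in cisplatin. Leaving out 1 library gave 0 to 3 ends for oxaliplatin against DMSO, 4 to 6 for cisplatin against oxaliplatin, 7 to 13 and 7 to 10 for polysomes against cytosol in DMSO and cisplatin, and 0 to 1 gene for DMSO; the other counts did not move. For cisplatin against DMSO and against oxaliplatin in H358, where not all libraries of the same number deviated together, the replicate block gave 6 and 5 calls. Signs turned only on leaving out a library. The CDK12 71.9-kb level, cisplatin against oxaliplatin, ran from -0.19 to 1.60. The CSTF3 early sum ran from -0.18 to 0.02 for cisplatin in A549R and from -0.03 to 0.18 in polysomes, and its 56.8-kb ratio from -0.48 to 0.17 in A549 cytosol, with single values of 0.02 and 0.12 on leaving out DMSO 1 and cisplatin 3 and -0.02 for the polysome sum without cisplatin 1. RLE scaling, a 3-kb window and partners within 50 kb changed no call. The cause of the other changes was not tested. Counts under 20 in a library, as at several early ends, limit the precision.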
